A study of Rattus norvegicus with 46 samples.

Results

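DNA replication and S-phase genes were followed here across 46 rat kidneys, 1 Affymetrix Rat Gene 1.1 ST array per animal. The set was a list of 44 genes for origin licensing, the replicative helicase, the polymerases, the sliding clamp, lagging-strand processing, deoxynucleotide synthesis and the entry into S phase. A gene was represented by the probe set whose only gene symbol was that gene, and by the brightest such probe set where there were several. 42 of the 44 genes had one, Rrm1 and Tk1 did not, and all 42 were among the 14607 of 29214 probe sets with the higher SD, which were the ones tested. Male Wister rats were given VPA (valproic acid, which blocks histone deacetylases, 150 mg/kg), dexamethasone (Dex, a glucocorticoid, 3 mg/kg) or saline (Vehicle) intraperitoneally before surgery, the left renal artery was then clamped for 45 min, and the right kidney was removed once blood flow had returned. Kidneys were studied after 3, 24 or 120 h of reperfusion. VPA animals numbered 5, 5 and 4 at these times, Dex animals 4, 5 and 4, Vehicle animals 5, 4 and 5, and naïve animals, neither injured nor treated, numbered 5. The naïve animals had been anesthetized but not operated on, so that ischemia, loss of the other kidney and the operation cannot be told apart in any comparison with them. Rats of the 3 h groups stayed under anesthesia until they were killed, while the others woke and were given the painkiller buprenorphine. The 3 h experiments came first, then those of 24 h and 120 h. Time of reperfusion cannot be told apart from these differences. Nothing states that animals were pooled or shared. P-values rest on the spread between animals within groups, estimated once over all 10 groups, and not on the compared animals alone.

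Before a cell copies its DNA, the origin recognition complex with Cdc6 and Cdt1 loads the ring-shaped Mcm2-7 helicase onto origins. At the start of S phase Cdc45 and the GINS complex turn that ring into an active helicase, polymerases epsilon and delta extend the new strands on the Pcna clamp, and Fen1 and Lig1 join the lagging-strand fragments. Most of these genes are low in resting cells and are switched on by E2F transcription factors once cyclin E and its kinase have inactivated the retinoblastoma proteins. Tubular cells of the adult kidney rarely divide, but surviving tubular cells re-enter the cell cycle after ischemic injury. In whole-kidney RNA, a change in the number of cells of a type and a change in RNA per cell cannot be told apart.

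Some arrays stood apart and bear on every value below. Across the tested probe sets Vehicle replicate 1 at 24 h correlated more closely with the mean of the Vehicle animals at 3 h (r = 0.981) than with the other Vehicle animals at 24 h (r = 0.893). Its label could not be checked from these data and is in doubt, so that Vehicle replicate 1 at 24 h means the array labelled so, and the calls that it changes are given with and without it. The study's methods describe fewer arrays than the 46 analysed here and leave out arrays that failed quality control, without saying which. VPA replicate 3 at 3 h, VPA replicates 2 and 3 at 120 h, Dex replicate 4 at 24 h and Vehicle replicate 1 at 120 h lay nearest the naïve mean, and 8 arrays in all lay nearest a group of another time. Vehicle replicate 4 at 120 h lay nearest the Dex mean at 24 h (r = 0.975, own group 0.919). VPA replicate 2 at 24 h lay nearest the VPA mean at 120 h (r = 0.976, own group 0.948). The labels of these arrays could not be checked either. The 7 measured markers of the proximal tubule summed to a signal of 20937 in Vehicle replicate 1 at 24 h, and to 6561 to 9147 in the other 3 Vehicle animals at 24 h, against 18741 to 23280.3 in naïve animals. Array medians ran from 64.7 to 87.5.

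The promoters of these genes are shown first, because E2F binds words of the form TTT, 2 bases of G or C, then CGC in many S-phase promoters. RefSeq gives a promoter, 250 bases before to 50 bases after the start of the gene (build GRCr8), for 36 of the 44 genes. Mcm4, Orc1, Cdc6, Gins4, Rpa3, Rrm2, E2f1 and Ccne2 were not matched. 4 E2F words were searched on both strands, TTTGGCGC, TTTCGCGC, TTTGCCGC and TTTCCCGC. At least 1 of them stood in 17 of the 36 promoters (47.2%), against 716 of all 33469 promoters in the table (2.14%). Within 50 bases of the start, 14 of the 36 promoters held one (38.9%), against 0.777% of all promoters. The CCAAT box, which the factor NF-Y binds, stood in 22 of 36 (61.1%), against 37.5% of all promoters. The word TTTGAA, the core of the CHR element of late cell cycle genes, stood in 3 of 36 (8.33%), against 18.3%. The table of all promoters also holds non-coding genes. These matches are letters in a window and were not tested as binding sites.

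5 promoters are printed, the 3 MCM genes with the largest change and, for contrast, Pcna and Rfc1, whose promoters held no E2F word. Sequences are GRCr8, from 5′ to 3′ in the direction of the gene, with E2F words, CCAAT boxes and TTTGAA words of either strand in capitals.
Mcm6, chr13:42404303-42404602, minus strand: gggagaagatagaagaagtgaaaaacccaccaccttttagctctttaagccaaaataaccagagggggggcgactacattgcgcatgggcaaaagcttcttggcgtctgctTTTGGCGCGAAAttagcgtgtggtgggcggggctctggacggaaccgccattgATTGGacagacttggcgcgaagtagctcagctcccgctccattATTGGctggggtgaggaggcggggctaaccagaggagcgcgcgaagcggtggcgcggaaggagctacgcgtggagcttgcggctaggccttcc
Mcm5, chr19:13488563-13488862, plus strand: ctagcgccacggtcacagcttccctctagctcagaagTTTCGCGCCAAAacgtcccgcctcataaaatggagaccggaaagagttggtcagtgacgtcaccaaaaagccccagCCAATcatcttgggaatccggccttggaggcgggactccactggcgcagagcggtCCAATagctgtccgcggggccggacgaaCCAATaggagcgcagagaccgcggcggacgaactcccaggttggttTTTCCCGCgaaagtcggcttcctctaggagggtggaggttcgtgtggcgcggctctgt
Mcm3, chr9:30733697-30733996, minus strand: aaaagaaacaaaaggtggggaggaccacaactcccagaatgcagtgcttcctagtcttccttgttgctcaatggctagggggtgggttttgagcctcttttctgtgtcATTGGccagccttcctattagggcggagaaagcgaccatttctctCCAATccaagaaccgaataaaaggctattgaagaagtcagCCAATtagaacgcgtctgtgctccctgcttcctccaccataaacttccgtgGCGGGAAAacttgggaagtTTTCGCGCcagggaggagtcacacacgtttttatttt
Pcna, chr3:139955771-139956070, minus strand: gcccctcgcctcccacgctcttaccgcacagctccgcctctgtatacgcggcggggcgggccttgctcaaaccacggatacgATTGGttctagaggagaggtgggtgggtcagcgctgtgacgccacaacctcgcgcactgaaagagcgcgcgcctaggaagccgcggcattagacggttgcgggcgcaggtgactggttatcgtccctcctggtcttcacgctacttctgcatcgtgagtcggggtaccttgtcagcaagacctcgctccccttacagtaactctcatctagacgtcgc
Rfc1, chr14:43319748-43320047, plus strand: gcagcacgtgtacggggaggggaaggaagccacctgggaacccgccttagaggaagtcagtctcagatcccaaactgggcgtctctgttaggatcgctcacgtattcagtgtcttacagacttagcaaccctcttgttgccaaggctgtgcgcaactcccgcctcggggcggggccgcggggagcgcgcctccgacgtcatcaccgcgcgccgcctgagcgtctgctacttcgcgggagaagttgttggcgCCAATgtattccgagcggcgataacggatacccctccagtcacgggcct

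In the Mcm5 promoter, TTTCGCGCCAAA holds an E2F word on each strand, and a further E2F word lies 8 bases before the start. The pair of overlapping words in the Mcm6 promoter begins 139 bases before the start, and the words of Mcm3 begin 6 bases before and 14 bases after it. Rfc1, the large subunit of the clamp loader, had a single CCAAT box and no E2F word. Of the 34 genes with both a promoter and a probe set, 17 had an E2F word and 17 had none. In VPA animals at 24 h against naïve, those with a word had a median log2 fold change of 1.72 (0.64 to 2.74, 13 called). Those without one had a median of 1.23 (0.32 to 2.00, 13 called). In Dex animals at 24 h the medians were 1.26 (10 called) and 1.03 (9 called). In Vehicle animals at 24 h they were 1.34 and 1.06, with 9 called in each. The ranges overlapped in each treatment, and the differences were not tested.

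**Figure D1:**
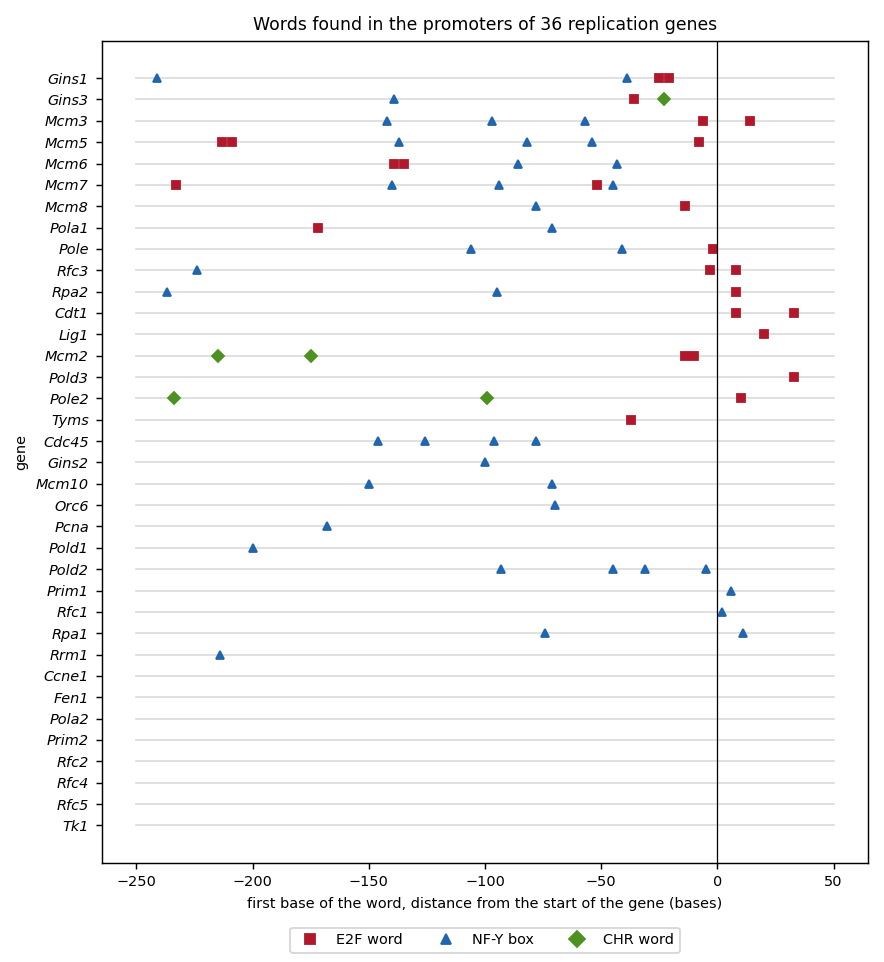
Position of the searched words in the promoters of 36 replication genes, as the distance of the first base of the word from the start of the gene in bases. Red squares are E2F words, blue triangles NF-Y boxes and green diamonds CHR words. The E2F words of 14 genes lie within 50 bases of the start, and the bottom 8 genes hold none of the searched words.

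Against naïve animals, replication genes were upregulated at 24 h in every treatment, and no member was called lower at any time. Genes were counted as called where the fold change was 2 or more and the limma P, adjusted over the 14607 probe sets, was below 0.05. In VPA animals at 24 h, 33 of the 42 genes rose, against 5.92% of all probe sets tested that rose. In Dex animals at 24 h 26 rose (background 2.59%), and in Vehicle animals at 24 h 25 rose (background 4.79%). All 42 genes had a log2 fold change above 0 in each treatment at 24 h, with medians of 1.49, 1.16 and 1.16 in VPA, Dex and Vehicle animals, while the median over all probe sets tested was 0.11, 0.17 and 0.13. With no fold threshold, 41, 39 and 34 of the 42 genes were higher at 24 h in VPA, Dex and Vehicle animals. A gene not called at 24 h may therefore still have passed the adjusted P, with a smaller change. The share of all probe sets that rose without the fold threshold was not counted. The same naïve animals stand in all these comparisons.

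At 120 h fewer genes were called. 13 rose in Dex animals (background 4.76%), 3 rose in Vehicle animals (background 1.83%) and none in VPA animals (background 0.493%), where 2 passed at 2-fold with an unadjusted P under 0.05 and the lowest adjusted P was 0.092. The count in Vehicle animals was 10 without Vehicle replicate 1 at 120 h, and 1 without Vehicle replicate 3, 4 or 5 at 120 h or naïve replicate 2. In Dex animals it was 5 without Dex replicate 4 and 7 without Dex replicate 1 at 120 h, and in VPA animals 3 without VPA replicate 3 and 2 without VPA replicate 2. The share of all probe sets that rose with these animals left out was not counted. Median log2 fold changes at 120 h were 0.46 in VPA, 0.73 in Dex and 0.59 in Vehicle animals. At 3 h none rose in VPA (background 1.43%), Dex (4.44%) or Vehicle animals (3.18%), and none passed at 2-fold with an unadjusted P under 0.05. The medians at 3 h were -0.24, -0.24 and -0.26, with 34, 33 and 38 of the 42 genes below 0. With the adjusted P alone, 1 gene was lower at 3 h in VPA animals (background 6.15%), 2 in Dex animals (background 8.56%) and 2 in Vehicle animals (background 9.26%). These were Tyms in each treatment and Rpa1 in Dex and Vehicle animals.

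**Figure D2:**
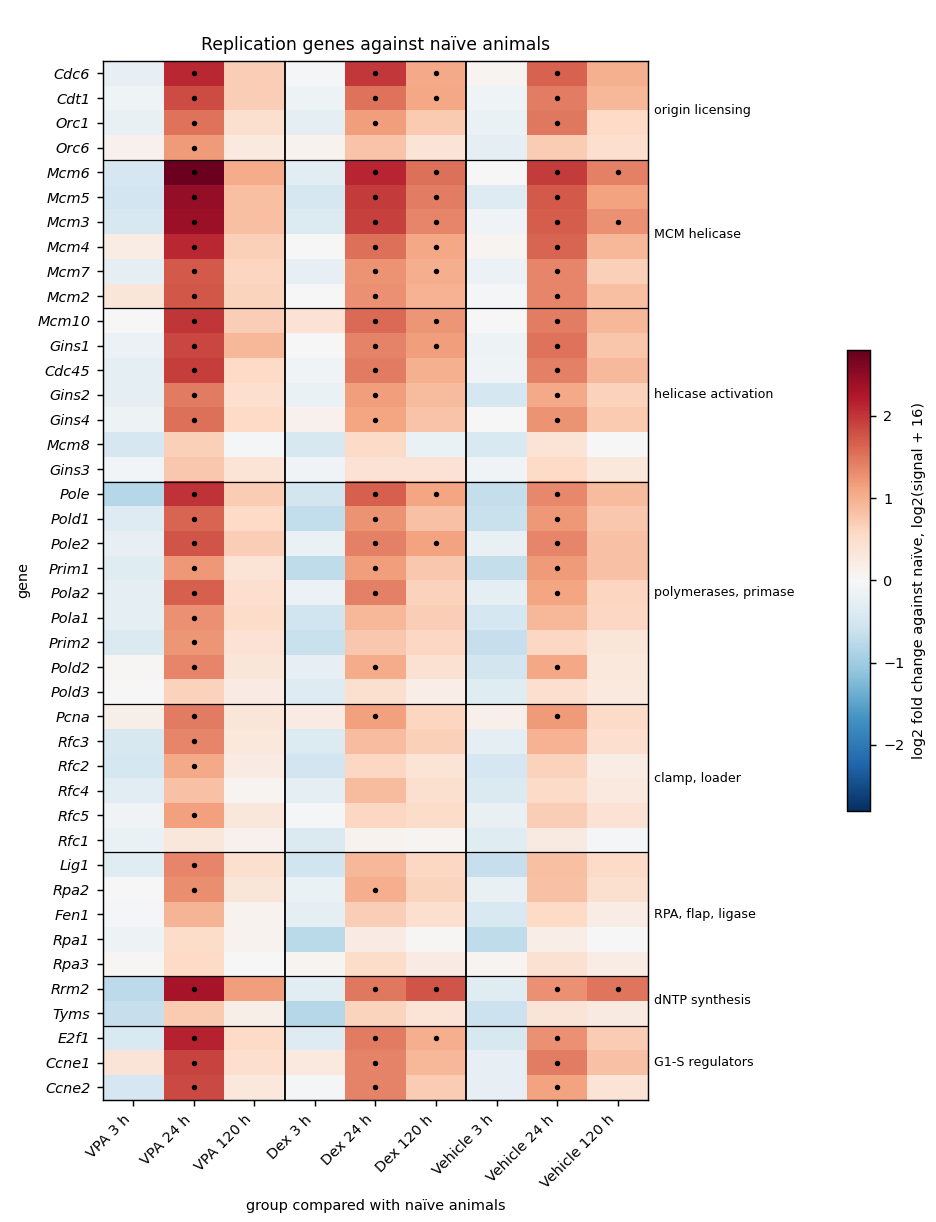
Log2 fold change of 42 replication genes (rows, by role) against naïve animals in 9 groups (columns), on the log2(signal + 16) scale, with a black point where the gene was called. The 24 h columns hold 33, 26 and 25 points in VPA, Dex and Vehicle animals, the 3 h columns none, and the Dex column at 120 h 13.

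The MCM helicase, the motor that unwinds the parental strands, had the highest median change of the 8 roles at 24 h, and each of its 6 subunits rose at 24 h in each treatment. Mcm6 changed most. Its signal at 24 h was 781, 394, 768, 696 and 645 in VPA animals, 646, 492, 467, 154 and 518 in Dex animals and 56, 654, 731 and 562 in Vehicle animals, against 72.7, 55.3, 99.5, 90.7 and 101 in naïve animals. All 5 VPA animals and all 5 Dex animals lay above every naïve animal, and Vehicle replicate 1 lay among the naïve animals. At 120 h Mcm6 measured 375, 93, 86.3 and 370.1 in VPA animals, 320.4, 180.5, 251 and 356 in Dex animals and 122, 196, 226, 541 and 293 in Vehicle animals. VPA replicates 2 and 3 overlapped the naïve range, and every Dex and Vehicle animal lay above it. At 3 h the signals were 60.5, 41.9, 66.8, 47.6 and 58.2 in VPA animals, 80.3, 53.9, 60.4 and 58.9 in Dex animals and 104, 86, 55.6, 59.1 and 115 in Vehicle animals, with all 3 groups overlapping the naïve animals. The log2 fold change of Mcm6 at 24 h was 2.74 ± 0.43 (adjusted P = 3.0e-05) in VPA animals, 2.13 ± 0.43 (adjusted P = 9.3e-04) with Dex and 1.95 ± 0.45 (adjusted P = 0.0016) with Vehicle (2.75 ± 0.38 without Vehicle replicate 1). At 120 h it was 1.04 ± 0.45 (adjusted P = 0.16) in VPA animals, 1.54 ± 0.45 (adjusted P = 0.012) with Dex and 1.41 ± 0.43 (adjusted P = 0.028) with Vehicle. Mcm5 and Mcm3 followed, at 2.45 ± 0.43 and 2.39 ± 0.39 in VPA animals at 24 h, then Mcm4 at 2.11 ± 0.33. The smallest changes of the ring were those of Mcm2 (1.73 ± 0.28) and Mcm7 (1.72 ± 0.30). At 120 h, 5 of the 6 subunits were still up in Dex animals, Mcm6 and Mcm3 in Vehicle animals and none in VPA animals.

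Origin licensing factors rose with the ring they load. All 4 were up in VPA animals at 24 h, and 3 in Dex and in Vehicle animals (4 in Vehicle animals without Vehicle replicate 1). Cdc6, the ATPase that brings the helicase to the origin, measured at 24 h 242, 111, 206, 217 and 185 in VPA animals, 255, 248, 155, 64.4 and 212 in Dex animals and 24.3, 213, 229 and 192 in Vehicle animals, against 36, 20.4, 40.7, 29.8 and 29.8 in naïve animals. The naïve animals were near the lower quartile of the arrays (19.9 to 37.6), where the offset damps a change. At 120 h Cdc6 measured 90.9, 35.3, 35.4 and 99.4 in VPA animals, 88.1, 70.7, 70.5 and 104 in Dex animals and 37.5, 64.3, 82.4, 199 and 61.4 in Vehicle animals, and at 3 h 24.1, 22.8, 27, 26.6 and 18.7 in VPA animals, 32, 25, 28.8 and 32.9 in Dex animals and 44.6, 61.1, 13.4, 31.5 and 28.2 in Vehicle animals. Among the 120 h animals Vehicle replicate 4 was the highest, at the level of the 24 h animals, and its whole array lay nearest the Dex mean at 24 h. The log2 fold change at 24 h was 2.11 ± 0.36 (adjusted P = 6.1e-05) in VPA animals, 1.99 ± 0.36 (adjusted P = 4.4e-04) with Dex and 1.65 ± 0.38 (adjusted P = 0.0014) with Vehicle (2.28 ± 0.33 without Vehicle replicate 1). Cdt1, its partner in loading, had 1.82 ± 0.30, 1.53 ± 0.30 and 1.43 ± 0.31 in VPA, Dex and Vehicle animals. Orc1, the large subunit of the origin recognition complex, had 1.52 ± 0.29, 1.16 ± 0.29 and 1.47 ± 0.30. In naïve animals Orc1 averaged a signal of 12 (10.2 to 15.2). Its mean, like those of Gins1 (11.2) and Pole2 (16.8), lay below the lower quartile of every array, and those of 10 of the 42 genes below the highest lower quartile. The files hold no detection call, so whether these genes were above background in naïve kidneys was not shown. Orc6 was called in VPA animals, at 1.19 ± 0.21, with 0.80 ± 0.21 in Dex and 0.70 ± 0.22 in Vehicle animals. Leaving out Vehicle replicate 1, it was called in Vehicle animals too, at 1.06 ± 0.20 (adjusted P = 6.6e-05). Between VPA and Vehicle animals Orc6 was not called.

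Of the 7 genes that activate the helicase or belong to other MCM proteins, the same number, 5, rose at 24 h in each treatment. Mcm10, which helps start unwinding, measured at 24 h 295, 126, 271, 208 and 162 in VPA animals, 217, 204, 139, 64.5 and 162 in Dex animals and 31.8, 182, 268 and 159 in Vehicle animals, against 30.5, 33.2, 52.1, 44.8 and 35.1 in naïve animals. Vehicle replicate 1 was again within the naïve range. By 120 h Mcm10 was 139, 31.4, 38.4 and 131 in VPA animals, 128, 81.1, 96.2 and 155 in Dex animals and 37.1, 76.2, 89.2, 186 and 102 in Vehicle animals, and at 3 h 34.4, 38, 42.4, 39.6 and 36.2 in VPA animals, 68.3, 46.1, 65.2 and 47.6 in Dex animals and 42.8, 23.5, 42, 51.5 and 34.9 in Vehicle animals. In Dex animals at 3 h, 2 of 4 lay above all naïve animals. Its log2 fold change at 24 h was 2.00 ± 0.34 (adjusted P = 7.5e-05) in VPA animals, 1.58 ± 0.34 (adjusted P = 0.0017) with Dex and 1.43 ± 0.37 (adjusted P = 0.0031) with Vehicle (1.97 ± 0.34 without Vehicle replicate 1). Cdc45 had 1.94 ± 0.30, 1.45 ± 0.30 and 1.42 ± 0.32 in VPA, Dex and Vehicle animals. Gins1, a subunit of the GINS ring, had 1.88 ± 0.30, 1.38 ± 0.30 and 1.53 ± 0.32. Gins4 and Gins2 were also called in each treatment, at 1.55 ± 0.29 and 1.46 ± 0.28 in VPA animals. Mcm8 is a helicase of recombination repair. Gins3 and Mcm8 were called in none, at 0.76 ± 0.19 and 0.66 ± 0.17 in VPA animals.

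Polymerase and primase genes rose in numbers of 8, 6 and 6 of 9 at 24 h in VPA, Dex and Vehicle animals, and 8 in Vehicle animals without Vehicle replicate 1. Pole, the catalytic subunit of the leading-strand polymerase, measured at 24 h 456, 225, 423, 351 and 329.9 in VPA animals, 374, 360.3, 274, 113 and 308 in Dex animals and 43.9, 350.3, 386 and 274 in Vehicle animals, against 56.1, 77.9, 103, 57.9 and 76.3 in naïve animals. Pole at 120 h measured 236, 67.9, 71.7 and 217 in VPA animals, 179, 135, 167 and 226 in Dex animals and 80.3, 119, 145, 306 and 156 in Vehicle animals, and at 3 h 26, 41.2, 42, 21 and 51.2 in VPA animals, 49.2, 43.6, 41.4 and 49.8 in Dex animals and 55.7, 37.3, 47.1, 30.8 and 31.3 in Vehicle animals. Every VPA, Dex and Vehicle animal at 3 h lay below the lowest naïve animal, with log2 fold changes of -0.80 ± 0.36, -0.52 ± 0.38 and -0.67 ± 0.36 that passed the test in none. Of the 42 genes, 3 lay wholly below naïve at 3 h in VPA animals (6.36% of all probe sets tested). In Dex animals 8 did (11.7%), and in Vehicle animals 7 (7.67%). At 24 h the log2 fold change was 2.03 ± 0.36 (adjusted P = 8.8e-05) in VPA animals, 1.67 ± 0.36 (adjusted P = 0.0014) with Dex and 1.34 ± 0.38 (adjusted P = 0.0066) with Vehicle (1.98 ± 0.33 without Vehicle replicate 1). Pold1, the catalytic subunit of polymerase delta, had 1.63 ± 0.30, 1.26 ± 0.30 and 1.22 ± 0.32. Pole2 had 1.76 ± 0.30, 1.41 ± 0.30 and 1.37 ± 0.32, and Prim1, which makes the RNA primers, 1.21 ± 0.25, 1.18 ± 0.25 and 1.20 ± 0.27. Pola2, Pold2, Pola1 and Prim2 had 1.68 ± 0.33, 1.37 ± 0.24, 1.29 ± 0.23 and 1.23 ± 0.28 in VPA animals, where all 4 were called, while Pola1 and Prim2 were called in neither Dex nor Vehicle animals. Both were called in Vehicle animals without Vehicle replicate 1, at 1.37 ± 0.20 (adjusted P = 8.3e-06) and 1.12 ± 0.23 (adjusted P = 2.4e-04). Pold3, an accessory subunit, was called in none, at 0.64 ± 0.15, 0.45 ± 0.15 and 0.46 ± 0.15.

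The sliding clamp was called at 24 h in each treatment, while its loader subunits passed the 2-fold threshold in part or not at all. Pcna, the clamp that holds polymerases on DNA, measured at 24 h 1308, 828, 1309.7, 1064 and 1034 in VPA animals, 1076, 1035, 1034, 453 and 968 in Dex animals and 483, 1212, 1155 and 999 in Vehicle animals, against 415, 363, 406, 408 and 345 in naïve animals. Pcna at 120 h measured 746, 389, 336 and 606 in VPA animals, 668, 490.4, 526 and 718 in Dex animals and 425, 479, 524, 942 and 576 in Vehicle animals, and at 3 h 432, 441, 355, 449 and 501 in VPA animals, 444, 429, 455 and 518 in Dex animals and 413, 502, 396, 449.7 and 403 in Vehicle animals. At 24 h all VPA, Dex and Vehicle animals lay above the naïve range, the lowest being Dex replicate 4 and Vehicle replicate 1. The log2 fold change at 24 h was 1.46 ± 0.22 (adjusted P = 2.1e-05) in VPA animals, 1.14 ± 0.22 (adjusted P = 6.9e-04) with Dex and 1.20 ± 0.23 (adjusted P = 4.2e-04) with Vehicle, the lowest adjusted P of all members in VPA animals. Rfc1 had the smallest mean change of the 42 genes over the 9 comparisons with naïve. Its signal at 24 h was 318, 299, 373, 289.8 and 305 in VPA animals, 269, 249, 277, 255 and 291 in Dex animals and 187, 363, 354 and 345 in Vehicle animals, against 277, 188, 247, 273 and 272 in naïve animals, at 120 h 345, 233, 213 and 322 in VPA animals, 295, 172, 315 and 290.1 in Dex animals and 220.3, 194, 221, 315 and 281 in Vehicle animals and at 3 h 259.8, 182, 251, 222 and 177 in VPA animals, 242, 131, 214 and 166 in Dex animals and 181, 258, 202, 204 and 135 in Vehicle animals. At 24 h all 5 VPA animals and 3 Vehicle animals lay above the naïve range, by little, while 4 of 5 Dex animals lay inside it. The log2 fold changes of Rfc1 at 24 h were 0.32 ± 0.18 (adjusted P = 0.17) in VPA animals, 0.10 ± 0.18 (adjusted P = 0.72) with Dex and 0.26 ± 0.19 (adjusted P = 0.33) with Vehicle. The small loader subunits Rfc3, Rfc5 and Rfc2 rose in VPA animals at 24 h, by 1.36 ± 0.26, 1.14 ± 0.21 and 1.05 ± 0.20, and were not called in Dex animals, nor in Vehicle animals with all 4 arrays. Without Vehicle replicate 1, Rfc3 and Rfc2 were called in Vehicle animals at 24 h, at 1.39 ± 0.26 (adjusted P = 6.6e-05) and 1.00 ± 0.19 (adjusted P = 8.6e-05), and Rfc5 had 0.97 ± 0.21. Rfc4 was called in none, at 0.82 ± 0.21 in VPA and 0.89 ± 0.21 in Dex animals.

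Of 5 genes for single-strand binding and the joining of lagging-strand fragments, 2, 1 and 0 rose at 24 h in VPA, Dex and Vehicle animals, and 2 in Vehicle animals without Vehicle replicate 1. Lig1, the ligase that seals the fragments, measured at 24 h 797, 462, 666, 590.2 and 593 in VPA animals, 582, 527, 444, 265 and 503 in Dex animals and 139, 609, 669 and 533 in Vehicle animals, against 228, 197, 270.1, 238 and 205 in naïve animals. Lig1 at 120 h measured 468, 199, 223 and 449 in VPA animals, 351, 291, 373 and 392 in Dex animals and 276, 294, 321, 502 and 322 in Vehicle animals, and at 3 h 154, 146, 208, 173 and 196 in VPA animals, 167, 157, 132 and 143 in Dex animals and 145, 175, 149.9, 145 and 94.4 in Vehicle animals. At 3 h every Dex and Vehicle animal and 4 of 5 VPA animals lay below the naïve range. Of all probe sets tested, 11.7% lay wholly below naïve in Dex and 7.67% in Vehicle animals at 3 h. Dex replicate 4 at 24 h lay inside that range and Vehicle replicate 1 below it. The log2 fold change at 24 h was 1.37 ± 0.26 (adjusted P = 1.5e-04) in VPA animals, 0.94 ± 0.26 (adjusted P = 0.0082) with Dex and 0.85 ± 0.27 (adjusted P = 0.016) with Vehicle (1.35 ± 0.22, adjusted P = 2.0e-05, without Vehicle replicate 1). Rpa2, a subunit of the single-strand binding protein RPA, had 1.31 ± 0.23 in VPA, 1.01 ± 0.23 in Dex and 0.83 ± 0.25 in Vehicle animals and was called in VPA and Dex animals, and in Vehicle animals without Vehicle replicate 1 (1.22 ± 0.22, adjusted P = 4.5e-05). Fen1, the flap nuclease, Rpa1 and Rpa3 were not called, at 0.95 ± 0.24, 0.52 ± 0.17 and 0.55 ± 0.16 in VPA animals. A second probe set of Fen1, dimmer and not among those tested, had 0.07 ± 0.18 in VPA animals, and the second probe set of Rpa3 had 0.69 ± 0.19.

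Rrm2, the subunit of ribonucleotide reductase whose supply limits deoxynucleotides in S phase, rose at 24 h in each treatment and at 120 h in Dex and Vehicle animals. At 24 h it measured 1694, 856, 1544, 1102 and 708 in VPA animals, 838, 1025, 797, 208 and 628 in Dex animals and 140.0, 958, 958 and 628 in Vehicle animals, against 155, 153, 245, 236 and 318 in naïve animals. At 120 h it was 1134, 238, 216 and 1016 in VPA animals, 849, 531, 686 and 1067 in Dex animals and 386, 624, 637, 838 and 749.7 in Vehicle animals, and at 3 h 109, 96.8, 182, 88.2 and 154 in VPA animals, 205, 174, 139 and 160.0 in Dex animals and 195, 142, 170.3, 106 and 250.3 in Vehicle animals. All Dex and Vehicle animals at 120 h lay above every naïve animal, and VPA animals were split, with replicates 1 and 4 above and replicates 2 and 3 within the naïve range. The log2 fold change was 2.31 ± 0.41 (adjusted P = 1.1e-04) in VPA animals, 1.47 ± 0.41 (adjusted P = 0.0099) with Dex and 1.28 ± 0.44 (adjusted P = 0.025) with Vehicle at 24 h (1.89 ± 0.42 without Vehicle replicate 1). At 120 h it was 1.16 ± 0.44 (adjusted P = 0.12) in VPA animals, 1.76 ± 0.44 (adjusted P = 0.0041) with Dex and 1.49 ± 0.41 (adjusted P = 0.019) with Vehicle. It was the only member with a higher mean at 120 h than at 24 h in Dex animals, by 0.28 ± 0.44, and in Vehicle animals, by 0.21 ± 0.44, neither past the test (-0.40 ± 0.42 in Vehicle animals without replicate 1 at 24 h). A second probe set of Rrm2 gave 2.33 ± 0.42, 1.47 ± 0.42 and 1.28 ± 0.45 at 24 h. Tyms, which makes thymidylate, was called in none at 2-fold, with 0.74 ± 0.19, 0.63 ± 0.19 and 0.36 ± 0.20 at 24 h.

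The 3 regulators of the step from G1 to S phase, E2f1, Ccne1 and Ccne2, rose at 24 h in each treatment. E2f1, an activating E2F and itself an E2F target, measured at 24 h 365, 167, 334, 289 and 226 in VPA animals, 238, 197, 185, 65.2 and 169.8 in Dex animals and 22.9, 219.9, 263 and 199.8 in Vehicle animals, against 40.7, 37.3, 61.1, 40.6 and 62.4 in naïve animals. At 120 h it was 144, 49.2, 38.4 and 119 in VPA animals, 115, 118, 91.4 and 129 in Dex animals and 46.2, 74.1, 92.5, 179.7 and 86.5 in Vehicle animals, and at 3 h 26.2, 23.6, 49.9, 28.3 and 31.2 in VPA animals, 44.3, 32.4, 27.1 and 31.5 in Dex animals and 39.6, 30.5, 28.6, 21.6 and 34.5 in Vehicle animals. Dex replicate 4 stood just above the naïve range at 24 h, and Vehicle replicate 1 was below it. The log2 fold change at 24 h was 2.15 ± 0.35 (adjusted P = 4.0e-05) in VPA animals, 1.46 ± 0.35 (adjusted P = 0.0031) with Dex and 1.27 ± 0.37 (adjusted P = 0.008) with Vehicle (1.93 ± 0.31 without Vehicle replicate 1). Ccne1 and Ccne2, the E-type cyclins, had 1.89 ± 0.30 and 1.85 ± 0.32 in VPA animals, 1.38 ± 0.30 and 1.39 ± 0.32 in Dex animals, and 1.43 ± 0.32 and 1.13 ± 0.34 in Vehicle animals.

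**Figure D3:**
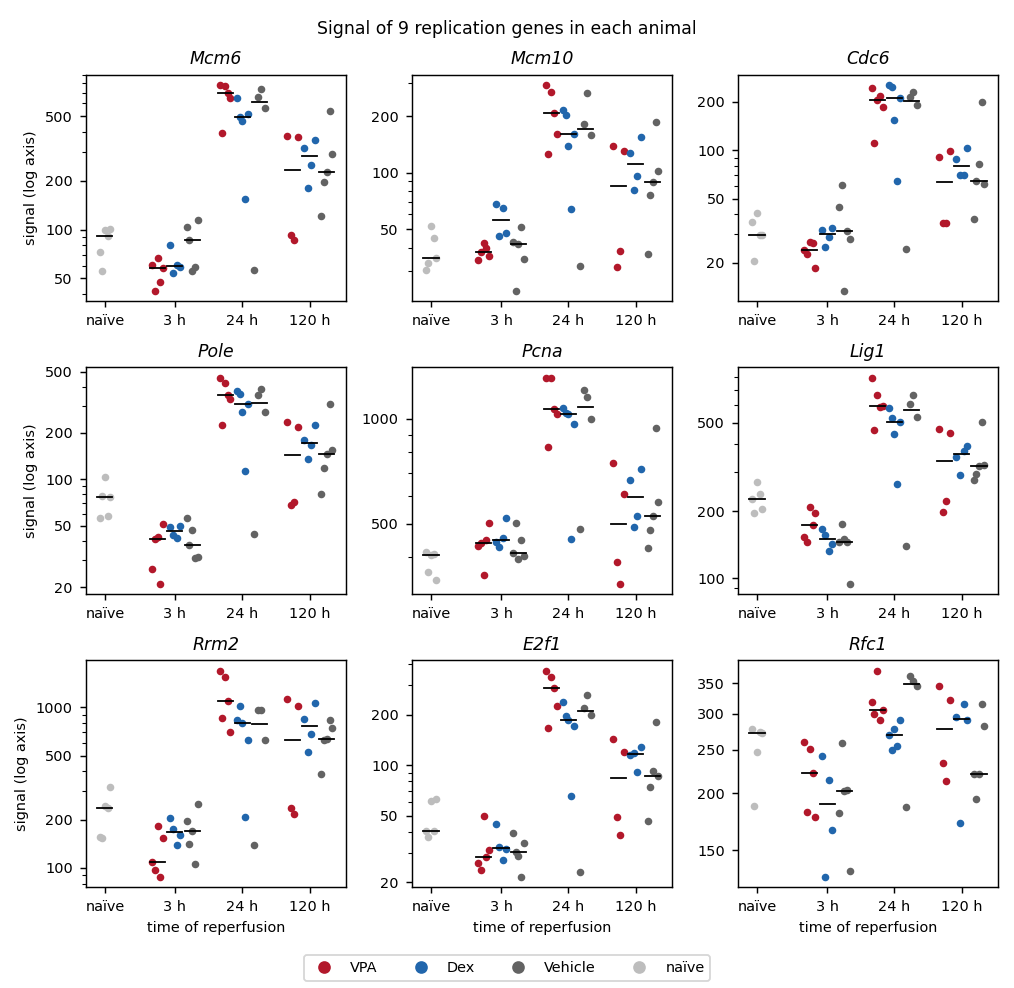
Signal in each animal (points, log axis) of the member with the largest mean change in each role and of Rfc1, with the smallest, at 3, 24 and 120 h, the naïve animals at the left. Black bars are medians. In 8 genes the 24 h points lie above naïve apart from Vehicle replicate 1 and in part Dex replicate 4, and at 120 h VPA animals fall into 2 high and 2 low points.

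The mean level of the members differed between animals of a group. The mean over the 42 genes of the log2 value less its naïve mean, given as a description, was 1.78, 1.01, 1.72, 1.58 and 1.38 in VPA animals at 24 h, 1.47, 1.39, 1.20, 0.33 and 1.22 in Dex animals, and -0.32, 1.53, 1.66 and 1.38 in Vehicle animals, against -0.16 to 0.14 in naïve animals. At 120 h the means were 1.01, -0.01, -0.07 and 0.92 in VPA animals, 0.88, 0.47, 0.66 and 1.01 in Dex animals, and 0.10, 0.46, 0.58, 1.22 and 0.70 in Vehicle animals. VPA animals at 120 h thus held 2 near the naïve level and 2 near 1, while Dex animals were all above it. At 3 h the values ran from -0.38 to -0.07 in VPA, -0.34 to -0.14 in Dex and -0.32 to -0.22 in Vehicle animals. Group means ± SD were ordered as VPA at 24 h (1.49 ± 0.31), Dex at 24 h (1.12 ± 0.46), Vehicle at 24 h (1.06 ± 0.93), Dex at 120 h (0.76 ± 0.24), Vehicle at 120 h (0.61 ± 0.41) and VPA at 120 h (0.46 ± 0.58). Each neighbour in that order differed by less than the larger SD of the pair. The place of Vehicle at 24 h rested on replicate 1, without which its mean was 1.52 ± 0.14 (SD, n = 3), level with VPA at 24 h within either SD.

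Counted by animal, 23 to 36 of the 42 genes were at least 2-fold above the naïve mean in the VPA animals at 24 h, 25 to 30 in Dex replicates 1, 2, 3 and 5 and none in replicate 4, and 30 to 33 in Vehicle replicates 2 to 4 and none in replicate 1. At 120 h the counts were 20, 0, 0 and 19 in VPA animals, 20, 6, 9 and 20 in Dex animals, and 0, 3, 5, 27 and 8 in Vehicle animals. No naïve animal and no animal at 3 h had any. All 42 genes were above every naïve animal in every VPA animal at 24 h, against 17.5% of all probe sets tested. That held for 27 genes in Dex animals at 24 h (background 6.92%), 1 in Vehicle animals at 24 h (10.5%), 29 in Dex animals at 120 h (19.3%), 15 in Vehicle animals at 120 h (5.04%) and 0 in VPA animals at 120 h (2.48%). Without Vehicle replicate 1, all 42 genes were above the naïve range in Vehicle animals at 24 h too (background 25.7%).

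**Figure D4:**
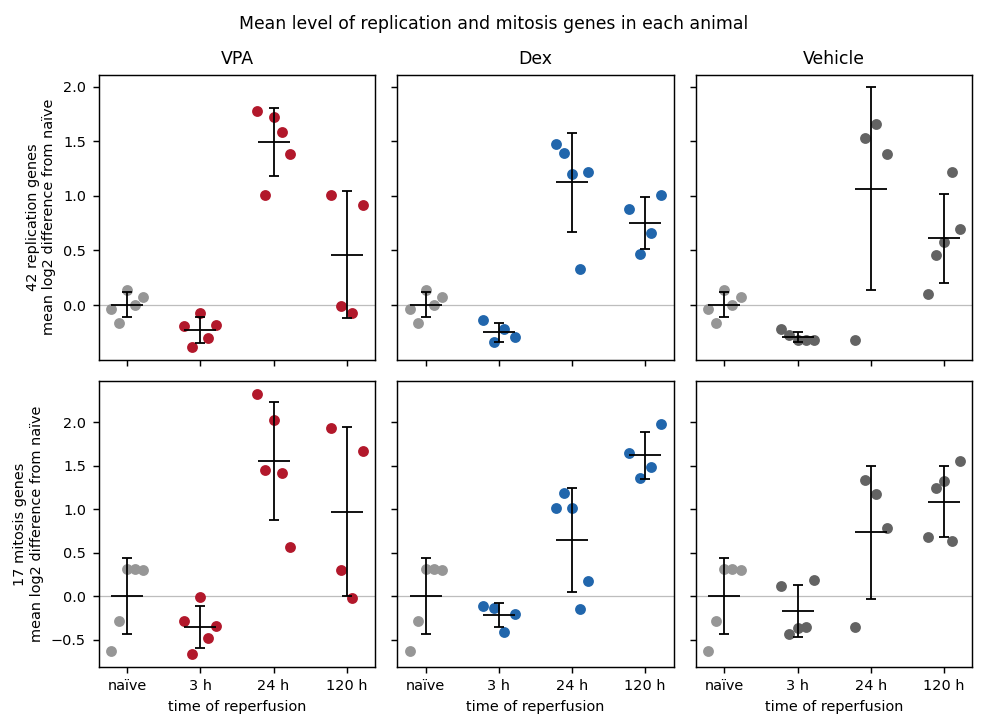
Mean log2 difference from the naïve animals in each animal (points) over 42 replication genes (top) and 17 mitosis genes (bottom), by treatment and time of reperfusion, with the group mean and SD in black. Replication genes are highest at 24 h in each treatment, while the mean of the mitosis genes is higher at 120 h than at 24 h in Dex animals (1.62 and 0.64) and lower in VPA animals (0.97 and 1.56). In Vehicle animals it is 1.08 at 120 h, and 0.74 at 24 h with replicate 1 or 1.1 without it. The Dex mean at 24 h keeps replicate 4, whose mitosis level is -0.15.

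No replication gene separated a pretreatment from Vehicle at any time. VPA against Vehicle called none of the 42 genes at 3 h (background 0.0548% of probe sets in either direction), at 24 h (background 0%) or at 120 h (background 0%). Dex against Vehicle called none at 3 h (background 0.171%), 24 h (0.116%) or 120 h (0%). At 2-fold with an unadjusted P under 0.05, Rrm2 passed at 24 h between VPA and Vehicle and no other member in any of these 6 comparisons. With the methods' analysis of variance the counts were also 0. The median log2 difference was 0.01 at 3 h, 0.40 at 24 h and -0.16 at 120 h for VPA, and 0.01, 0.07 and 0.12 for Dex, with a median standard error of 0.28 to 0.30.

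These medians at 24 h rested on 1 Vehicle animal. In VPA animals all 42 genes had a difference at or above 0, led by Rrm2 at 1.03 ± 0.44 (adjusted P = 0.71) and E2f1 at 0.88 ± 0.37 (adjusted P = 0.71). Without Vehicle replicate 1 the median was -0.02, 18 of 42 genes were above 0, and the range was -0.45 (Prim1) to 0.42 (Rrm2), with none called (background 0%) and a lowest adjusted P of 1. In the same fit Dex at 24 h had a median of -0.42 against Vehicle, all 42 genes were lower in Dex animals, from -0.77 to -0.03, and none was called (background 0.301%, lowest adjusted P = 0.21). That fit kept Dex replicate 4, whose mean over the members was 0.33, against 1.20 to 1.47 in the other Dex animals at 24 h. The Dex median therefore rests in part on that 1 animal, and a fit without both animals was not made. The count of genes that rose in Vehicle animals at 24 h against naïve was 32 without Vehicle replicate 1 (background 8.02%), with a median of 1.64.

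**Figure D5:**
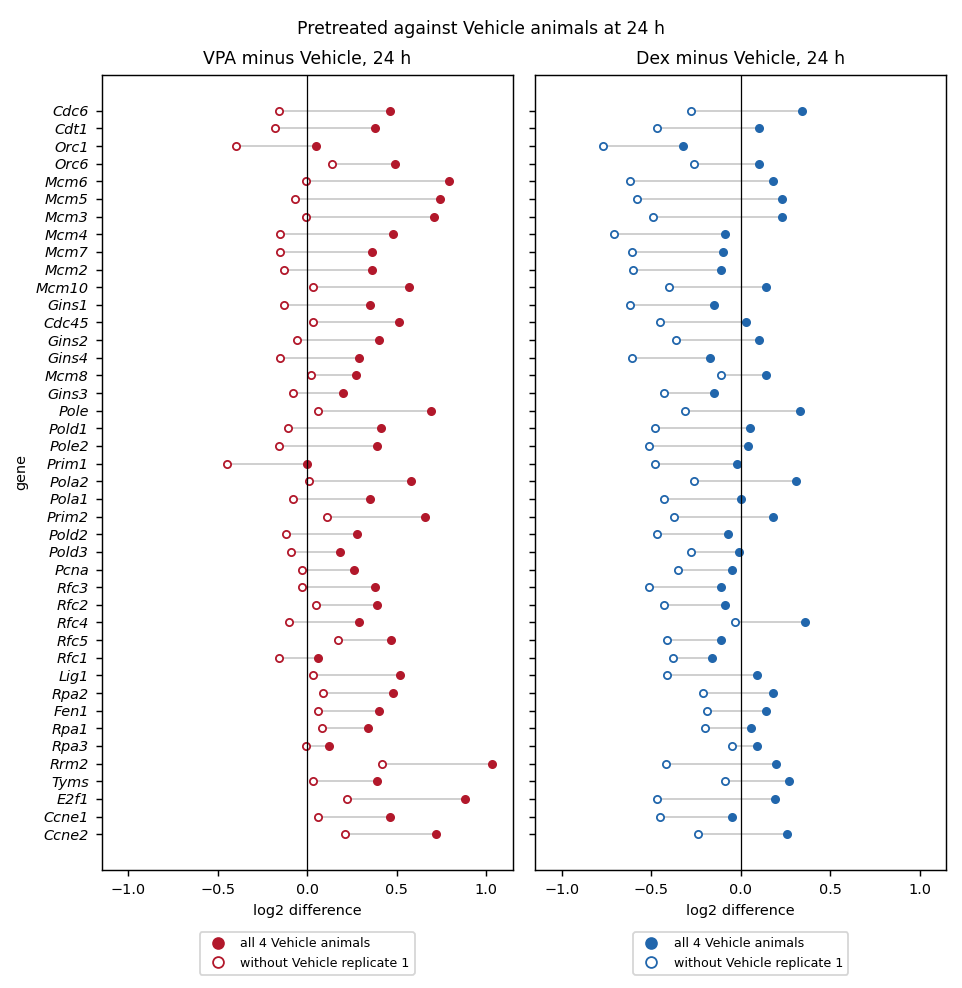
Log2 difference of each replication gene at 24 h between VPA and Vehicle (left) and Dex and Vehicle (right), with all 4 Vehicle animals (filled) and without Vehicle replicate 1 (open). Leaving that animal out gives a median of -0.02 in place of 0.40 for VPA and of -0.42 in place of 0.07 for Dex. Dex replicate 4, the low Dex animal at 24 h, is kept throughout.

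The decline after 24 h was called in VPA animals, and the call depended on the setting. Between 120 h and 24 h, 7 of 42 genes fell in VPA animals (background 0.267%), with a median of -1.05. They were Pcna (-1.12 ± 0.23, adjusted P = 0.025), Ccne1 (-1.41 ± 0.32, adjusted P = 0.035), Ccne2 (-1.55 ± 0.34, adjusted P = 0.035), Cdc45 (-1.39 ± 0.32, adjusted P = 0.037), E2f1 (-1.59 ± 0.37, adjusted P = 0.04), Mcm4 (-1.45 ± 0.35, adjusted P = 0.043) and Pold2 (-1.04 ± 0.25, adjusted P = 0.043). This count was 1 with all probe sets, with an offset of 1 or with the methods' analysis of variance, 0 with only the groups compared, 12 without dim probe sets and 18 with array weights. It was 0 without any 1 of 6 of the 9 animals, VPA replicates 2 and 3 at 120 h among them. The count was 27 without VPA replicate 2 at 24 h, 27 without VPA replicate 4 at 120 h and 26 without VPA replicate 1 at 120 h. The share of all probe sets that fell under these other settings was not counted, so whether the members stood out there is not known. In Dex animals none fell (background 4.17%, median -0.37), and in Vehicle animals none fell (background 0.164%, median -0.46), and in neither did any pass at 2-fold with an unadjusted P under 0.05. Without Vehicle replicate 1 at 24 h, 18 genes fell in Vehicle animals (background 0.63%), Pold2 the most surely (-1.20 ± 0.23, adjusted P = 0.0039), with a median of -0.97. In 4 interaction contrasts, which set the effect of a pretreatment at one time against that at another, no member passed in VPA between 24 and 3 h (background 0.00685%) or 120 and 24 h (0%), nor in Dex (0.0274% and 0%). The unadjusted P was under 0.05 for 1 and 2 members in VPA and for 0 in Dex.

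Further genes of replication rose at 24 h. Of 37 other replication genes measured, 23 rose in VPA (background 5.92%), 12 in Dex (2.59%) and 13 in Vehicle animals (4.79%) at 24 h, and 0 (0.493%), 8 (4.76%) and 4 (1.83%) at 120 h. The Vehicle count at 24 h was 22 without replicate 1 (8.02%). Uhrf1, which guides maintenance methylation to new DNA, had 2.69 ± 0.48 in VPA animals at 24 h, Dtl, an adaptor that marks Cdt1 for destruction, 2.52 ± 0.41, and Rnaseh2b, a subunit of ribonuclease H2, the smallest change, 0.04 ± 0.13. Of 25 G1-S regulators outside the set, 8, 4 and 4 rose at 24 h against the same backgrounds, and 8 in Vehicle animals without replicate 1. Myc was at 2.50 ± 0.43, Mybl2 at 2.46 ± 0.39 and E2f6 at 0.02 ± 0.12 in VPA animals at 24 h. At 3 h, when no replication gene was up, 2 of these 25 were called in each treatment (backgrounds 1.43%, 4.44% and 3.18% in VPA, Dex and Vehicle animals). They were Myc, a driver of cell growth, at 2.26 ± 0.43, 3.22 ± 0.46 and 2.60 ± 0.43 in VPA, Dex and Vehicle animals, and Cdkn1a, an inhibitor of cyclin-dependent kinases, at 1.71 ± 0.36, 3.16 ± 0.39 and 2.22 ± 0.36, both named after their values were seen.

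Mitosis genes were called in larger number at 120 h than at 24 h in Dex animals. Of 17 measured, 15 rose in VPA (background 5.92%), 4 in Dex (2.59%) and 4 in Vehicle animals (4.79%) at 24 h, and 0 (0.493%), 16 (4.76%) and 10 (1.83%) at 120 h. In Vehicle animals at 24 h 11 rose without replicate 1 (8.02%). Cdk1, the kinase of mitotic entry, had 2.21 ± 0.42 and Mki67, a marker of cycling cells, 2.11 ± 0.38 in VPA animals at 24 h, and Kif11, a spindle motor, 0.52 ± 0.20. Between 120 h and 24 h in Dex animals 6 of the 17 mitosis genes rose (background 2.14%), with a median of 0.86, while the median of the 42 replication genes was -0.37. These values include Dex replicate 4 at 24 h, whose mean mitosis level was -0.15, and mitosis counts without it were not made. The other Dex animals at 24 h had 0.17 to 1.19, and those at 120 h 1.36 to 1.98. In Vehicle animals the medians were 0.35 and -0.46 with none called (-0.08 and -0.97 without replicate 1 at 24 h), and in VPA animals -0.55 and -1.05. No mitosis gene was called between VPA and Vehicle at 24 h, where the median was 0.84 (0.49 without Vehicle replicate 1), 2 passed at 2-fold with an unadjusted P under 0.05, and the lowest adjusted P was 0.65. At that time Vehicle replicate 1 had a mean mitosis level of -0.36, the other 3 Vehicle animals 0.78 to 1.34 and the VPA animals 0.56 to 2.32.

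Some cell type markers changed at 24 h, and others at 3 h or 120 h. Of 7 proximal tubule markers 2 fell at 24 h in VPA (background of lower probe sets 3.55%), 3 in Dex (2.59%) and 3 in Vehicle animals (4.23%), or 7 in Vehicle animals without replicate 1 (6.63%). Their summed signal was 7736 to 17299 in VPA, 6809 to 16030.1 in Dex and 6561 to 20937 in Vehicle animals, against 18741 to 23280.3 in naïve animals. Of 6 markers of the loop of Henle, distal tubule and collecting duct, 3 fell in VPA (3.55%), 1 in Dex (2.59%) and 2 in Vehicle animals (4.23%) at 24 h. Without Vehicle replicate 1, 3 fell in Vehicle animals (6.63%). Sums were 5073 to 11932, 5949 to 12439 and 4811 to 10842, against 12552 to 16037 in naïve animals. Of 6 neutrophil markers 3 rose in VPA (background 5.92%), 0 in Dex (2.59%) and 5 in Vehicle animals (4.79%) at 24 h, with sums of 157 to 849, 91.2 to 250.3 and 195 to 565, against 68.4 to 114 in naïve animals. Without Vehicle replicate 1, 4 rose in Vehicle animals at 24 h (8.02%). In Vehicle animals at 3 h, when no replication gene was up, 5 of 6 neutrophil markers had also risen (356 to 919, background 3.18%). Their sums at 3 h were 107 to 316 in VPA and 173 to 261 in Dex animals. Of 10 macrophage markers 1 (background 5.92%), 1 (2.59%) and 2 (4.79%) rose at 24 h in VPA, Dex and Vehicle animals. At 120 h 2 (0.493%), 8 (4.76%) and 2 (1.83%) rose, with sums of 1780.5 to 10061, 3926 to 5961 and 1802 to 5759, against 1787 to 2065 in naïve animals. Of 8 fibroblast markers 3 (background 0.493%), 3 (4.76%) and 1 (1.83%) rose at 120 h in VPA, Dex and Vehicle animals, with sums of 5856 to 12658, 7639 to 11478 and 4149 to 11140.0, against 3883 to 7405 in naïve animals, and none at 24 h. Of 5 red blood cell markers 2 rose (background 4.79%) and 1 fell (4.23%) in Vehicle animals at 24 h. Without Vehicle replicate 1, 1 rose (8.02%) and 1 fell (6.63%). In VPA animals 1 fell at 24 h (3.55%). In Dex animals 3 fell at 120 h, where the share of all probe sets that fell was not counted. Sums were 609 to 6853 over the groups at 24 and 120 h, against 1448 to 4707 in naïve animals. None of the lymphocyte, podocyte and endothelium markers tested (7, 2 and 3) was called against naïve. No marker of these lists was at 0, and the part of these cells in the replication genes was not tested.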

How the data were processed

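RNA of 46 kidneys, each from a different animal, was hybridised to 46 arrays (Affymetrix Rat Gene 1.1 ST). The deposited intensity values were made by the authors from the scans with iterPLIER in Affymetrix Expression Console 1.1 and are linear and not log-transformed. Of 29214 probe sets, 18644 carried 1 gene symbol, 962 several and 9608 none, and genes were named only through a single symbol. No column was left without a sample (0 unmapped columns). An offset of 16 was added, log2 was taken, and the 50% of probe sets with the lower SD were left out, following the study's methods. limma 3.58.1 in R 4.3.3 was fitted once over 10 groups (36 residual and 4.44 prior degrees of freedom) with 18 comparisons and 4 interaction contrasts, each adjusted by Benjamini-Hochberg over 14607 probe sets. The code was tested on simulated data. Values after ± are standard errors of a log2 difference unless named SD. These standard errors use the spread pooled over the 10 groups, although groups differed in spread. The SD of the mean over the members ran from 0.04 (Vehicle at 3 h) to 0.93 (Vehicle at 24 h). The number of arrays, 4 or 5 in a group, limits the precision.

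The members and the gene lists were chosen with earlier results of these data known. Values in every animal are given for the member of each role with the largest mean absolute change against naïve animals and for the member with the smallest. Up to 4 more members of a role are named by the size of their change, others to account for the rest, and genes of other lists as the 2 largest and the 1 smallest in VPA animals at 24 h. Levels of different probe sets were not compared with each other. Alternatives were an offset of 1, all probe sets, removal of dim probe sets, quantile normalization, array weights, no fold threshold, only the groups compared, the analysis of variance of the study's methods, the replicate number as a block, and each animal left out in turn. Counts of the other gene lists and markers without Vehicle replicate 1 at 24 h were chosen after seeing the data.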

Additional observations from a re-analysis of the deposited data

Results flagged for a closer look

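In groups of 4 or 5 animals, 14 of 100 checked sets of values held an animal whose gap to the nearest other took most of the range of the group. Chance alone gives about 1 such set in 20, and the 9 genes and the mean over 42 genes are not independent of each other. On the log2(signal + 16) scale, Vehicle replicate 1 at 24 h was the low animal for Mcm6 (6.17), Cdc6 (5.33), Rfc1 (7.66), Lig1 (7.28), E2f1 (5.28) and the mean difference from naïve over the 42 replication genes (-0.32). Dex replicate 4 at 24 h was the low animal for Mcm6 (7.41), Pole (7.01), Pcna (8.87), E2f1 (6.34) and the mean over the 42 genes (0.33). VPA replicate 2 at 24 h was the low animal for Mcm6 (8.68). Dex replicate 2 at 120 h was the low animal for Rfc1 (7.56), and Vehicle replicate 4 at 120 h was the high animal for Lig1 (9.02). What set these animals apart was not tested.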

How the results depend on the processing

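No count or value past the test changed direction under any alternative. Differences of mean levels, which have no test, changed sign with 1 animal left out for Dex and for VPA against Vehicle at 24 h (0.06 and 0.43, or -0.40 and -0.03 without Vehicle replicate 1) and for VPA against Vehicle at 120 h (-0.15, or 0.03 without VPA replicate 3). Of 330 counts of called members under other settings 296 stayed within 1.5 times the main count. Many of the 330 had a main count of 0, so this total says little of the counts above 0. Of 504 values of named members 487 kept their side of the threshold. Shares over all probe sets were counted only for the main fit and without Vehicle replicate 1 at 24 h. The fall of members in VPA animals at 120 h against 24 h (7 genes) was 1 with all probe sets, 1 with an offset of 1, 0 with only the groups compared, 1 with the methods' analysis of variance, 18 with array weights and 12 without dim probe sets. Array weights gave 5 genes higher in VPA animals at 120 h against naïve (0 in the main fit) and 13 lower in Vehicle animals at 120 h against 24 h (0 in the main fit). An offset of 1 gave 5 genes higher in Vehicle animals at 120 h (3 in the main fit) and a mean of -0.37 over the members in Vehicle animals at 3 h (-0.29 in the main setting). With no fold threshold 7 genes were higher in Vehicle and 21 in Dex animals at 120 h against naïve, and 1 was lower in Dex animals at 120 h against 24 h. The cause was not tested, other than that no fold threshold admits smaller changes.

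With each animal left out in turn, the count of higher genes at 24 h ran from 32 to 34 in VPA, 24 to 29 in Dex and 17 to 32 in Vehicle animals, and at 120 h from 0 to 3, 5 to 16 and 1 to 10. The count of lower genes at 120 h against 24 h ran from 0 to 27 in VPA, 0 to 1 in Dex and 0 to 18 in Vehicle animals, the last without Vehicle replicate 1 at 24 h. Every count of VPA or Dex against Vehicle stayed at 0. The difference of mean levels ran from -0.03 to 0.63 for VPA and -0.40 to 0.26 for Dex against Vehicle at 24 h, and from -0.33 to 0.03 and 0.02 to 0.30 at 120 h.

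Replicate numbers did not pair the animals. Over 195 pairs with the same number the mean correlation of deviations was 0.014, 78 were over 0.1, and 9 of 46 arrays correlated best with their own number. With the replicate number as a block, 0 genes fell in VPA animals at 120 h against 24 h, and no other count of members changed. Dim probe sets such as Cdc6 in naïve animals lie near the lower quartile of the arrays, where the offset damps differences.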
